A study of Mus musculus with 18 samples.

Results

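The genes described here are 10 that coat the lipid droplet or control the breakdown of the fat inside it. They are the CIDE genes Cidea, Cideb and Cidec, the perilipins Plin2, Plin3, Plin4 and Plin5, and G0s2, Pnpla2 and Abhd5 of the first step of lipolysis. They were chosen by name among 31709 gene names on the array, with earlier results of these data known. Each of the 10 was found through the RefSeq accession of its probes, 14 probes in all. RNA from the livers of 18 male C57BL/6J mice was hybridised to 1-colour Agilent arrays, with an array for each mouse. The mice were 8 weeks old when they were assigned at random to a high-fat diet with linseed oil (LIN, 8 mice) or palm oil (PALM, 10 mice) and 13 weeks old after 5 weeks on it. Linseed fat held 9.7% saturated, 22.5% monounsaturated and 66.7% polyunsaturated fatty acids, with alpha-linolenic acid at 49.7%. Palm fat held 55.6% saturated, 34.8% monounsaturated and 8.8% polyunsaturated fatty acids. Both diets gave 51.1% of energy as lipid, 32.1% as carbohydrate and 16.7% as protein, so no group was on a low-fat diet, and p-values measure the spread between mice within a diet.

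Hepatocytes store triglyceride in droplets enclosed by a phospholipid monolayer with proteins on its surface. Perilipins cover the surface and limit access of lipases, while CIDE proteins gather where droplets touch and pass lipid from the smaller to the larger one. Adipose triglyceride lipase, encoded by Pnpla2, removes the first fatty acid from triglyceride; the protein of Abhd5 activates it and that of G0s2 inhibits it. In liver several of these genes are known targets of nuclear receptors of the PPAR family, which bind fatty acids and recognise repeats of the hexamer AGGTCA.

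Cidec and G0s2 were the genes of this set that differed between the diets, so their probes and promoters are shown. Cidec had probes at chr6:113374630-113374689 and chr6:113378116-113378175 (mm9, minus strand). G0s2 had a single probe at chr1:195098925-195098984 (mm9, minus strand), in which capitals mark the bases from the first ATG, a reading frame with no stop codon up to the end of the probe. Of the 3 forward reading frames of the Cidec probe printed here, 1 holds no stop codon.

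Cidec probe A_55_P1969128: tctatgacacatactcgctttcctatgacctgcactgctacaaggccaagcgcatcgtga

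G0s2 probe A_52_P681391: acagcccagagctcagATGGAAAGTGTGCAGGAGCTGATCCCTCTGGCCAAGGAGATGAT

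The 250 bases before the transcription start were read from the RefSeq promoter table of build GRCm38.p6, on the strand of the gene. They were searched on both strands for AGGTCANAGGTCA, the direct repeat bound by PPAR with RXR, for the single hexamer AGGTCA, which the repeat contains, for TATAAA and for GGGCGG. Capitals mark matches.

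G0s2, chr1:193273189-193273438 (minus strand): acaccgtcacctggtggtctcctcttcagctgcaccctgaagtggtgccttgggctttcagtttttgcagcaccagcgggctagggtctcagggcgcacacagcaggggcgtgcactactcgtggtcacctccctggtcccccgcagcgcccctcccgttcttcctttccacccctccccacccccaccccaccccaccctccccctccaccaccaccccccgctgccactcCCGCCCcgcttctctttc

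Cidec, the outer of its listed starts, chr6:113435761-113436010 (minus strand): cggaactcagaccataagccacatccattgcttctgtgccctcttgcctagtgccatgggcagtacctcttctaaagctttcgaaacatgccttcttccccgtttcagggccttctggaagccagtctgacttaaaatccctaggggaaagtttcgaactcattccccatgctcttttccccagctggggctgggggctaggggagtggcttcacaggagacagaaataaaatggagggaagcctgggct

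The G0s2 window was 67.2% G and C and held 1 GGGCGG, a match found in 32.7% of 32851 such windows. The Cidec window was 52.8% G and C and held none of the 4 motifs, and neither did the window of its inner start. Single AGGTCA hexamers, which occur in 14.0% of all windows, were found before Plin2, before Abhd5 and before 1 of the 2 starts of Plin5. The full repeat was in none of the 11 member windows in the table and in 0.0335% of all windows. Nothing follows from these letters about binding, since only 250 bases were searched.

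Values below are log2 signals, on which 0 is the 75th percentile of the array's own non-control spots. Since a probe's brightness also depends on its sequence, levels are compared between mice for 1 probe and not between genes. Differences are linseed minus palm, ± SE, from limma fitted over all genes with Benjamini-Hochberg adjustment. The image software had marked some spots as non-uniform or as outliers; the fit was made with such spots left out and again with them kept, because Plin2 and Plin5 could be tested only in the second version. In liver as a whole, more RNA per cell and more cells that express a gene cannot be told apart.

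Of the 8 members tested with marked spots left out, 2 were higher on linseed oil and 0 lower, where 0.57% of the 15951 genes tested were higher and 0.188% lower. With marked spots kept, the same 2 of 10 were higher and 0 lower, against 0.683% and 0.218% of 16544 genes. The members' median difference was 0.54 in the first version and 0.35 in the second, where the medians over all genes tested were −0.0038 and −0.0017. Differences were positive for 6 of 8 and for 8 of 10. Since the members were chosen with earlier results of these data known, these counts and shares are a description and no independent test of the set.

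**Figure D1:**
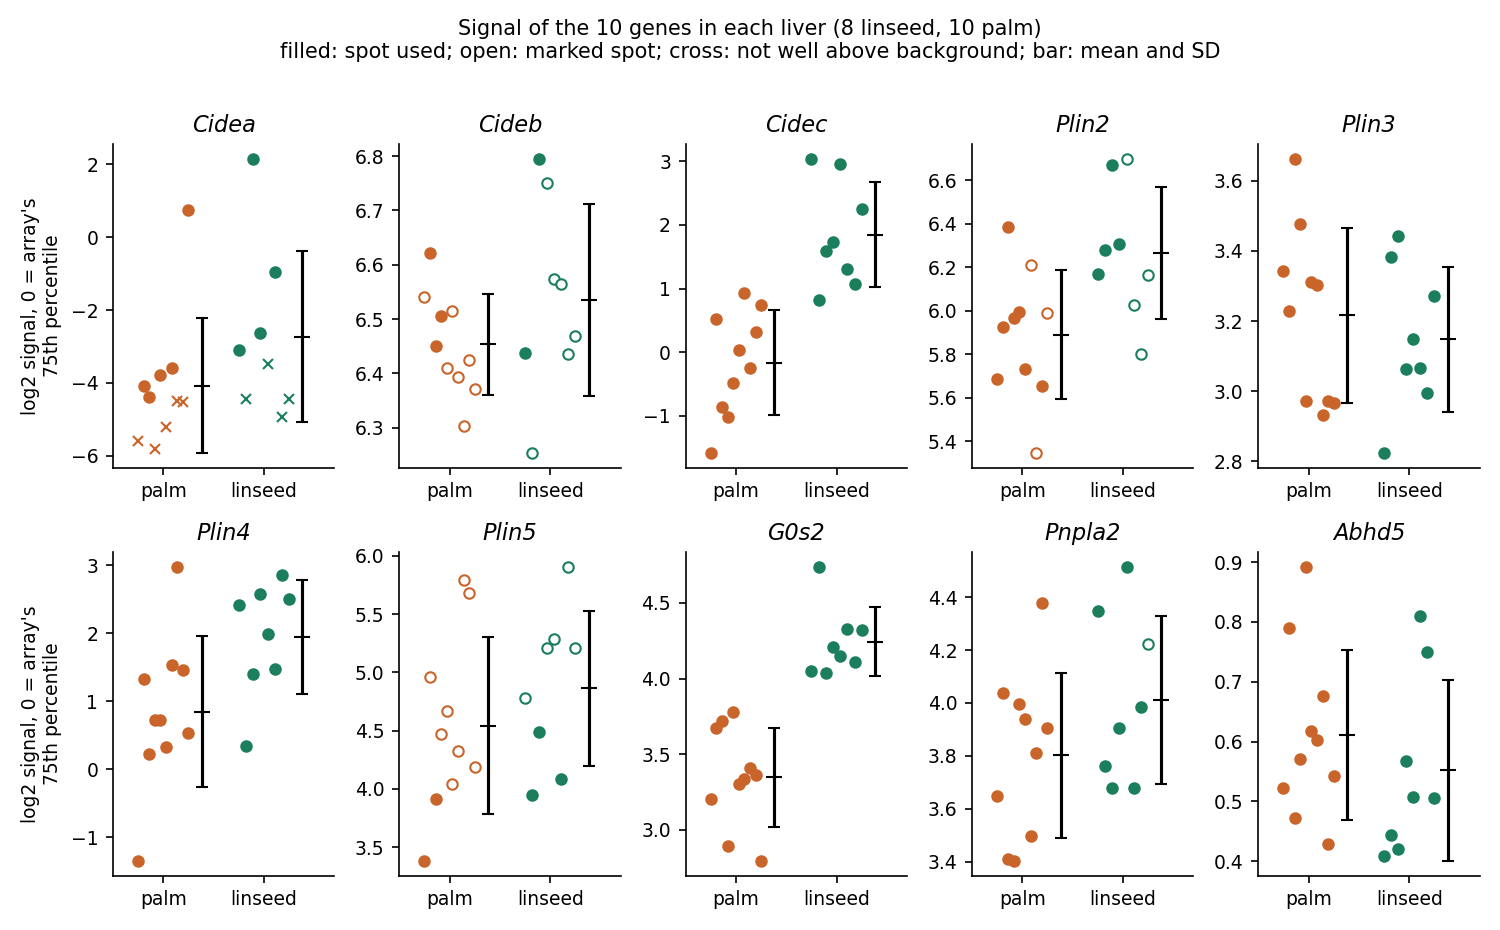
Log2 signal of the 10 genes in each mouse, by diet, on a separate vertical scale for each gene (0 is the array's 75th percentile); filled points are unmarked spots, open points marked spots, crosses values not well above background, and bars the mean and SD of 8 linseed and 10 palm mice. G0s2 shows a gap of 0.26 between the diets, and Cidec overlaps in 1 mouse of each diet.

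Cidec, which encodes the CIDE protein that enlarges droplets in fat cells and in fatty liver, had the largest difference among the members. Its log2 signal ran from 0.83 to 3.04 in linseed mice with a median of 1.67, and from −1.58 to 0.94 in palm mice with a median of −0.11. The 2 highest values belonged to linseed replicates 1 and 5, and the lowest to palm replicate 1. The diets overlapped only through linseed replicate 2, at 0.83, and palm replicate 7, at 0.94: 7 of 8 linseed mice lay above every palm mouse, and 9 of 10 palm mice below every linseed mouse. Such counts of mice were made for the members only, so they have no background over all genes here. Cidec was 4.03-fold higher on linseed oil (2.01 ± 0.36, limma adjusted p = 0.0114 with marked spots left out and 0.0104 with them kept). From lowest to highest mouse, values ran over 2.21 in linseed and 2.52 in palm mice, more than the difference between the diets. The SD was smaller than that difference, at 0.83 in linseed and 0.82 in palm mice.

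The second Cidec probe, whose sequence is given above, lies upstream of the first on the minus strand. It was dimmer, well above background in 8 of 8 linseed but 6 of 10 palm mice, and was tested on its own in the fit of every probe. It was 3.63-fold higher (1.86 ± 0.35, limma adjusted p = 0.0161 with marked spots left out), and again 7 linseed mice lay above every palm mouse. On the first probe the diets differed in the same direction within each of the 5 slides, by 0.85 to 3.18. The Cidec call was lost when the arrays of slide 1 were left out (1.84, limma adjusted p = 0.106) or those of slide 3 (1.88, limma adjusted p = 0.0984), and was kept in each fit that left out a single array.

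Cidea, the CIDE gene best known from brown fat, was dim in most livers and bright in a few. Its signal ran from −4.94 to 2.15 in linseed mice with a median of −3.30, and from −5.80 to 0.75 in palm mice with a median of −4.44. Linseed replicate 3 (2.15), palm replicate 10 (0.75) and linseed replicate 6 (−0.95) stood far above the other 15 mice, whose highest value was −2.62. Cidea was well above background in 4 of 8 linseed and 5 of 10 palm mice, so order among its low values is not informative. Its difference was 1.34 ± 0.91 (limma adjusted p = 0.667 with marked spots left out), with a 95% interval, not adjusted, of −0.57 to 3.25. Within slides it ran from −2.57 to 4.85. The value was 0.64 without linseed replicate 3, 0.39 with normexp background correction and 2.13 without slide 5, with no call in any of these.

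The same 3 livers had the highest signals of several, but not all, of the genes that mark fat cells. Adipoq, the adipocyte hormone adiponectin, was at −0.49 in linseed replicate 3, −0.42 in linseed replicate 6 and −1.39 in palm replicate 10, and at most −3.97 in the other 15 mice. Retn, which encodes resistin, was between −1.53 and −0.52 in the 3 mice and at most −4.33 in the others. Plin1, the perilipin of fat cells, was between −2.51 and −1.11 in the 3 mice, and well above background in none of the other 15. Ucp1, which uncouples respiration in brown fat, was named after its values were seen and ran from −1.69 to 2.22 in the 3 mice, with at most −3.32 elsewhere. Linseed replicate 4 was the only other mouse with Adipoq (−3.97), Retn (−4.67) and Ucp1 (−3.32) well above background. Its Cidea signal, −2.62, was the highest of the other 15 mice.

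Of the 10 adipocyte markers listed, 5 were well above background on at least 8 arrays, 0 passed the test between diets, and Lep and Trarg1 were above background on no array. With marked spots left out, 0.57% of all genes were higher and 0.188% lower. A count of 0 in a list this short is close to those shares. Fabp4, the fatty acid binding protein of fat cells, was between 2.27 and 2.93 in the 3 mice and at most 1.75 in the others. The remaining markers did not set the 3 mice apart: Lipe was at −2.11 in linseed replicate 3 but in the other two within the range of the remaining 15 mice, −3.48 to −2.28, and the values of Cfd, Aqp7 and Adrb3 in the 3 mice overlapped those of the 15. The log2 of the summed signal of the list ran from 2.34 to 5.34 in linseed and from 1.49 to 3.83 in palm mice. Such a sum is led by the brightest markers, and Cfd alone reached 5.17 in linseed and 3.34 in palm mice.

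Cfd, which encodes the adipocyte protease adipsin, had a pattern of its own. It ran from 0.84 to 5.17 in linseed and from −3.04 to 3.34 in palm mice, and its difference was 2.54 ± 0.88 (limma adjusted p = 0.278 with marked spots left out), 5.83-fold. The highest Cfd signal was in linseed replicate 1, the mouse with the highest Cidec, and linseed replicate 5, with the second highest Cidec, was at 3.74. Palm replicates 7 and 2 had the highest Cfd of their diet, at 3.34 and 3.27, and Cidec at 0.94 and 0.53. Other mice did not follow this order. Linseed replicate 8, with Cidec at 2.25, had the lowest Cfd of its diet, and linseed replicate 3 had Cfd at 4.28 with Cidec at 1.60. Palm replicate 9 had the lowest Cfd, at −3.04, with Cidec at 0.32. These mice were picked by their values, and a relation between Cfd and Cidec was not tested. The part of fat-cell transcripts in the Cidea and Cidec values was not tested. In the 3 mice with high Adipoq, Cidec was between 0.75 and 1.60. Palm replicate 10 was at 0.75, where the highest palm mouse was at 0.94. Without the 3 arrays with high Adipoq the Cidec difference was 2.24 ± 0.41 (limma adjusted p = 0.0261 with marked spots left out). G0s2 was 0.85 ± 0.14 higher without them (limma adjusted p = 0.0138). Linseed replicate 4 was kept in that fit.

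**Figure D2:**
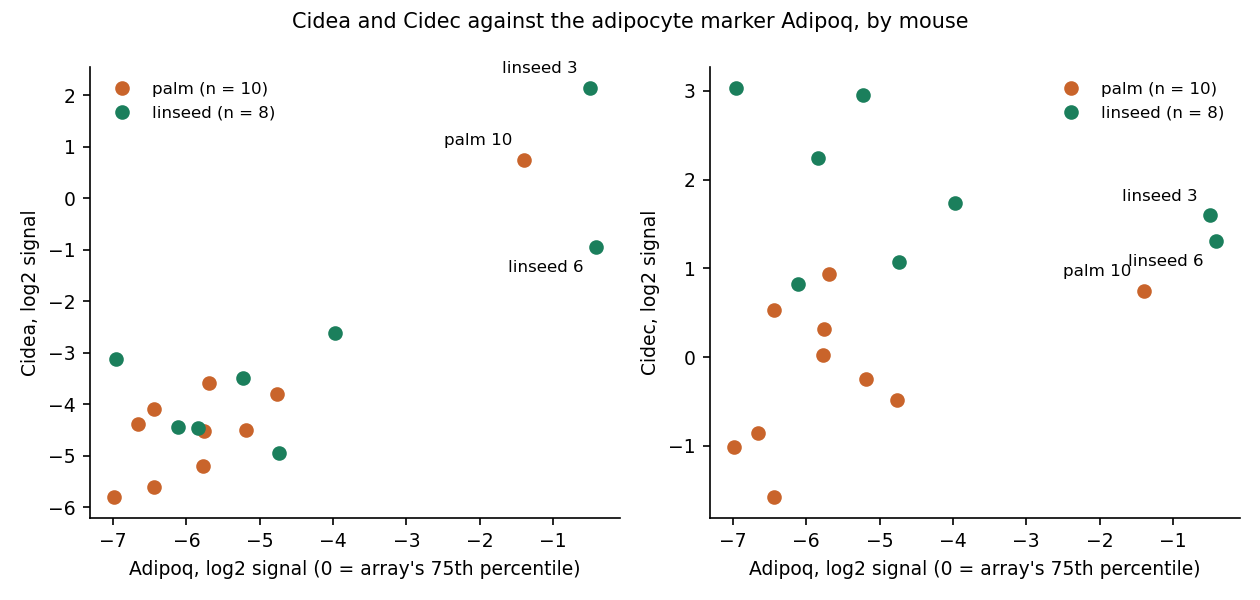
Log2 signal of Cidea (left) and Cidec (right) against that of the adipocyte marker Adipoq, 1 point per mouse, coloured by diet (8 linseed, 10 palm). The 3 labelled mice have an Adipoq signal of −1.39 or more and the 3 highest Cidea signals, while their Cidec signals, 0.75 to 1.60, lie within those of the other mice.

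Cideb, the CIDE gene of the normal hepatocyte, where it acts on droplets and on the lipidation of VLDL, did not pass the test. Its brighter probe ran from 6.25 to 6.79 in linseed and from 6.30 to 6.62 in palm mice, and its spot was marked in 6 of 8 and 7 of 10 arrays. The difference was 0.08 ± 0.07 (limma adjusted p = 0.754 with marked spots kept), with an unadjusted 95% interval of −0.07 to 0.23. The dimmer probe, with no marked spot, gave 0.11 ± 0.09 (limma adjusted p = 0.743 with marked spots left out).

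Among the perilipins none passed the test. Plin2, the main droplet coat of hepatocytes, ran from 5.80 to 6.70 in linseed mice with a median of 6.23, and from 5.35 to 6.38 in palm mice with a median of 5.94. The ranges overlapped, with 2 linseed mice above every palm mouse and 4 palm mice below every linseed mouse. The difference was 0.38 ± 0.14 (limma adjusted p = 0.294, marked spots kept), with an unadjusted 95% interval of 0.09 to 0.66, and positive within 5 of 5 slides by 0.14 to 0.84. Its spot was marked in 4 linseed and 3 palm mice. In the authors' own value table, made from the median spot signal, the Plin2 difference in the same fit was 0.34 ± 0.14 (limma adjusted p = 0.416).

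Plin4, a perilipin of fat cells and muscle, ran from 0.34 to 2.85 in linseed mice with a median of 2.21, and from −1.35 to 2.98 in palm mice with a median of 0.73. The highest of all 18 values was in palm replicate 8 and the lowest in palm replicate 1. The difference was 1.10 ± 0.44 (limma adjusted p = 0.376 with marked spots left out and 0.359 with them kept), positive within 4 of 5 slides. Its unadjusted 95% interval was 0.17 to 2.02, so a difference as small as 0.17 or as large as 2.02 lies within the error.

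Plin5, the perilipin of oxidative tissues that ties droplets to mitochondria, ran from 3.95 to 5.90 in linseed mice and from 3.38 to 5.79 in palm mice, with medians of 4.99 and 4.39. Its spot was marked in 5 linseed and 8 palm mice. The difference was 0.32 ± 0.32 (limma adjusted p = 0.792, marked spots kept), 0.17 without linseed replicate 7 and 0.19 without palm replicate 1. Plin3, a perilipin that moves from the cytosol to new droplets, ran from 2.82 to 3.44 in linseed and from 2.93 to 3.66 in palm mice. The Plin3 difference was −0.07 ± 0.11 (limma adjusted p = 0.89 with marked spots left out), with an unadjusted 95% interval of −0.30 to 0.16.

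Plin4 and Plin5 had similar profiles across the mice. The pair was picked for that pattern after the values had been seen, so its correlation is a description with no test. In the 8 linseed mice Pearson's r was 0.87 and Spearman's rho 0.83, and in the 10 palm mice both were 0.88. Without the 2 mice farthest from the Plin4 median, r was 0.83 in linseed and 0.72 in palm mice.

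After diet and slide were taken out, r over the 18 arrays was 0.87. The genes are neighbours on chromosome 17 with no other gene of the RefSeq table between them, and their probes lie 10910 bases apart (mm9). Plin3 is on the same chromosome, with 9 genes between it and Plin5. Too few Plin5 spots were unmarked to repeat the relation without marked spots.

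**Figure D3:**
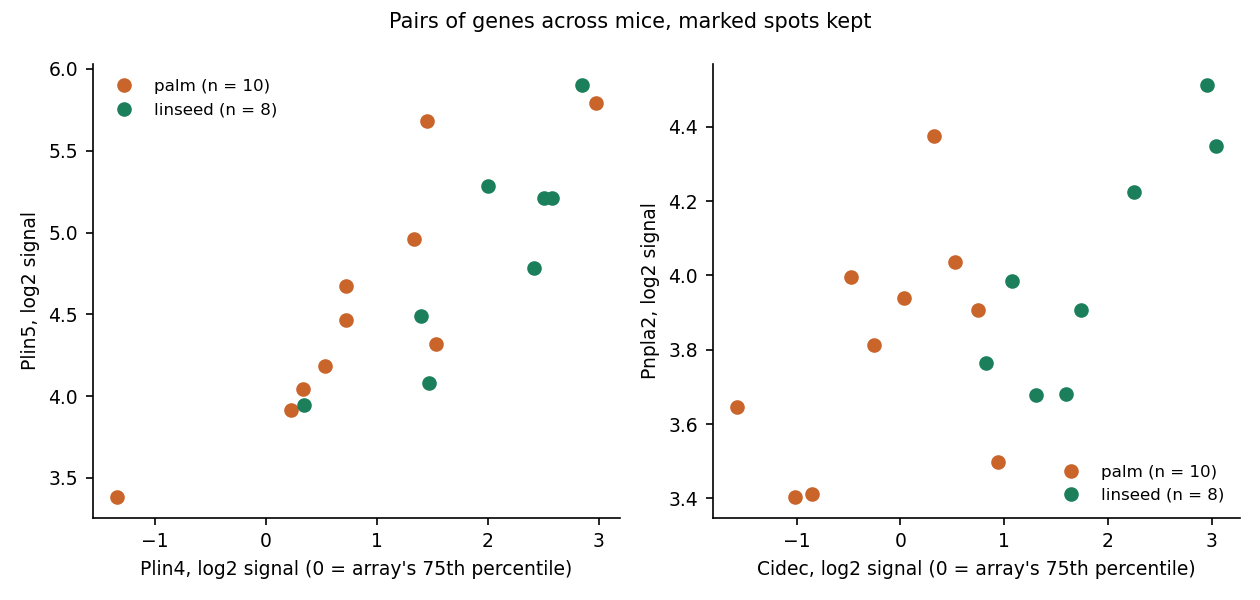
Log2 signal of Plin5 against Plin4 (left) and of Pnpla2 against Cidec (right), 1 point per mouse, coloured by diet (8 linseed, 10 palm), marked spots kept. For Plin4 and Plin5 r is 0.87 in linseed and 0.88 in palm mice, and for Cidec and Pnpla2 0.86 and 0.43.

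G0s2, the inhibitor of adipose triglyceride lipase, separated the diets completely. Its signal ran from 4.04 to 4.74 in linseed mice with a median of 4.18, and from 2.80 to 3.78 in palm mice with a median of 3.35. The highest palm mouse was 0.26 below the lowest linseed mouse. How many of all genes separate the diets in this way was not computed, so the separation has no background here. G0s2 was 1.86-fold higher on linseed oil (0.89 ± 0.13, limma adjusted p = 0.00218 with marked spots left out and 0.00233 with them kept). The difference within slides was 0.61 to 1.24, positive in 5 of 5. Its 95% interval, not adjusted, was 0.62 to 1.17. In each of 38 alternative settings G0s2 passed, at 0.82 to 0.96.

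Pnpla2, the lipase itself, ran from 3.68 to 4.51 in linseed and from 3.40 to 4.38 in palm mice, with medians of 3.95 and 3.86. The difference was 0.18 ± 0.15 (limma adjusted p = 0.753, n = 7 linseed and 10 palm with 1 marked spot left out) and 0.21 ± 0.14 with it kept (limma adjusted p = 0.654). It was positive within 5 of 5 slides, by 0.083 to 0.55. The interval of −0.09 to 0.51 with marked spots kept, not adjusted, holds 0.

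Abhd5, the activator, had 3 probes that did not point one way. The brightest ran from 0.41 to 0.81 in linseed and from 0.43 to 0.89 in palm mice and differed by −0.06 ± 0.07 (limma adjusted p = 0.852 with marked spots left out). In the fit of every probe the others gave 0.013 ± 0.11 (limma adjusted p = 0.982) and 0.16 ± 0.08 (limma adjusted p = 0.475). No direction is therefore given for Abhd5. Differences between the changes of the inhibitor, the lipase and the activator were not tested.

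**Figure D4:**
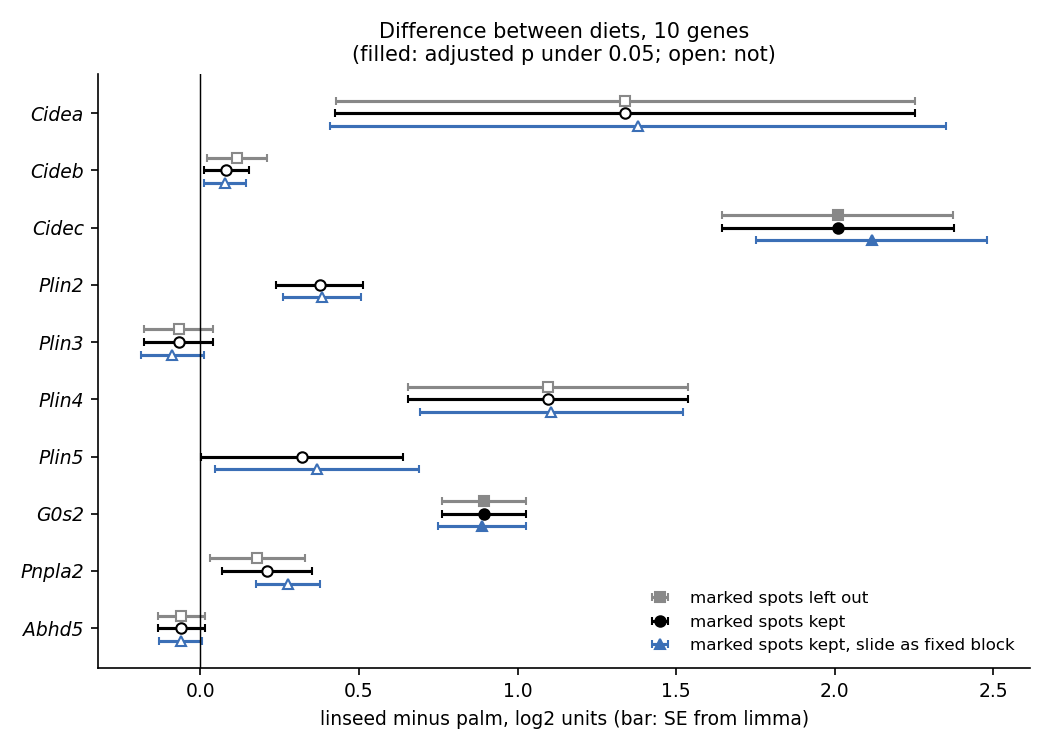
Linseed minus palm difference of each of the 10 genes in log2 units with its SE from limma, with marked spots left out, with them kept, and with them kept and slide as a fixed block; filled symbols passed an adjusted p of 0.05. Cidec and G0s2 are filled in each of the 3 fits, and Plin2 and Plin5 have no value with marked spots left out.

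Slides are the batch given by the barcodes in the array headers, except that the 3 arrays with no barcode were taken to share a slide, slide 1. Each of the 5 slides so defined held both diets. With slide as a fixed block the Cidec difference was 2.12 ± 0.36 (limma adjusted p = 0.0131) and that of G0s2 0.89 ± 0.14 (limma adjusted p = 0.00876), with marked spots kept. None of the other 8 members passed with slide in the model; Plin2 was at 0.38 ± 0.12 (limma adjusted p = 0.182), Pnpla2 at 0.28 ± 0.10 (limma adjusted p = 0.248) and Plin4 at 1.11 ± 0.41 (limma adjusted p = 0.254). Cidec, G0s2, Plin2 and Pnpla2 were higher on linseed oil within 5 of 5 slides, and Cidea, Cideb, Plin4 and Plin5 within 4. Of all genes, 46.0% to 55.9% were higher on linseed oil within a single slide. The share of all genes higher within 4 or 5 slides was not computed, so the members' counts of slides have no background here.

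**Figure D5:**
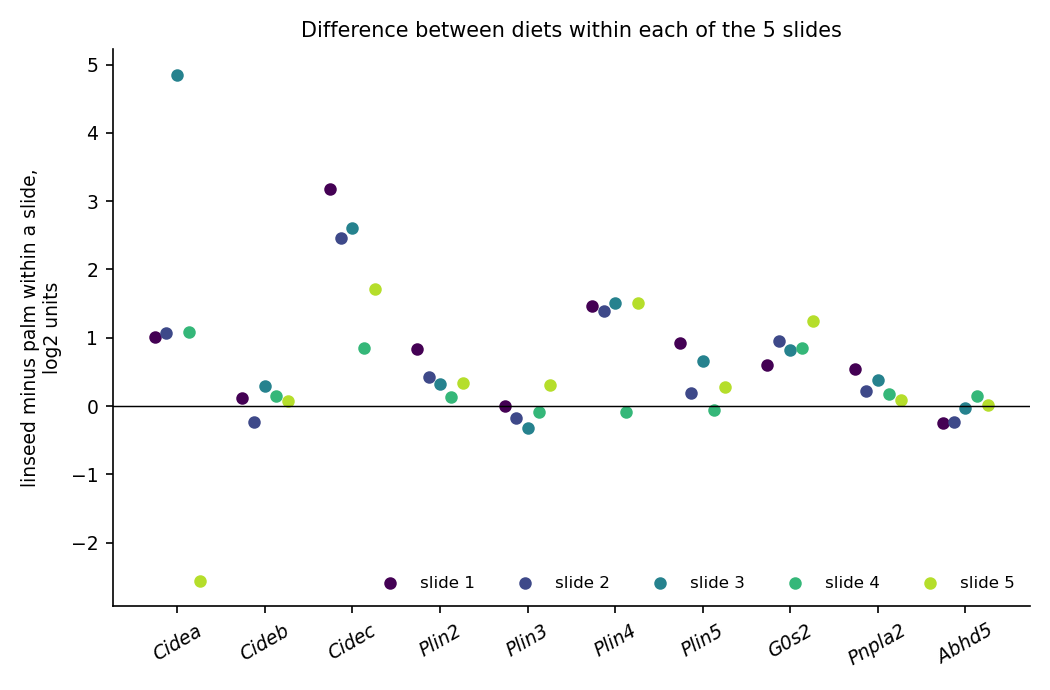
Difference between the diets within each slide, in log2 units, for the 10 genes; a point is the mean of 1 or 2 linseed mice minus that of 2 palm mice on the slide. The 5 Cidec points lie between 0.85 and 3.18 and the 5 G0s2 points between 0.61 and 1.24, while those of Cidea run from −2.57 to 4.85.

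Within a diet, no relation between Cidec and G0s2 was detected. Their r was −0.52 in linseed mice (exact permutation p = 0.18, adjusted 0.547; rho −0.43) and −0.04 in palm mice (permutation p = 0.908, adjusted 0.910; rho −0.05). Cidec and Pnpla2 had an r of 0.86 in linseed mice (exact permutation p = 0.00801, adjusted 0.144) and a rho of 0.71. In palm mice r was 0.43 (permutation p = 0.215, adjusted 0.547) and rho 0.42. Without the 2 mice farthest from the Cidec median, r was 0.59 in linseed and 0.75 in palm mice, and over the residuals of diet and slide it was 0.51. Cidec and Cidea had an r of 0.61 in palm mice (permutation p = 0.0465, adjusted 0.419) and a rho of 0.71. In linseed mice r was −0.05 (exact permutation p = 0.910, adjusted 0.910) and rho 0.14. Cidea was well above background in only 5 of the 10 palm mice. Each of the 9 other members was set against Cidec in both diets, and none of these 18 relations passed after adjustment over the 18.

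Over the residuals of diet and slide, among genes with an unmarked spot on at least 16 arrays, those that followed Cidec most closely were Lamb3 (r = 0.89), a transcript known only by an Ensembl identifier (0.84), the pseudogene Morf4l1-ps1 (0.84), Pgm3 (0.83) and Fnta (0.82). The 90th percentile of r over all 15373 genes compared was 0.35. For G0s2 they were Cers4 (0.87), Ciz1 (0.85), Ssbp4 (0.83), Ssh3 (0.83) and Rrp1b (0.82), with a 90th percentile of 0.38. None of these 10 genes passed the test between the diets (limma adjusted p of 0.142 for Lamb3 and larger for the others). They were picked as the highest of 15373 values of r over 18 arrays, and such picking by itself gives high r. Their r is a description with no test. The Ensembl transcript and Morf4l1-ps1 were dim, with mean log2 signals of −3.59 and −4.09. No other member was among these 10 genes, and Plin2 and Plin5 had too many marked spots to be compared.

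Other genes of droplet formation, coat and lipolysis gave no call. Of a list of 25, 22 were tested with marked spots left out and 24 with them kept, and 0 passed in either direction. Of all genes, 0.57% were higher and 0.188% lower in the first version, and 0.683% and 0.218% in the second. A count of 0 in a list of this length is close to those shares. Their median difference was 0.16, with 18 of 24 positive. The smallest p with marked spots left out belonged to Fitm1, a protein of the endoplasmic reticulum that helps droplets form, at 0.77 ± 0.24 (limma adjusted p = 0.187). With marked spots kept it belonged to Hsd17b11, a dehydrogenase found on droplets, at 0.42 ± 0.12 (limma adjusted p = 0.117). Pnpla3, the lipase paralogue whose human variant is linked to fatty liver, was picked after its values were seen. It was well above background in 1 of 8 linseed and 7 of 10 palm mice. The filter of 8 arrays was therefore met mostly through palm mice. Its difference of −1.49 ± 0.60 (limma adjusted p = 0.370) is a description only.

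Of 12 transcription factors known to act on these genes in liver or fat, 10 were tested with marked spots left out. With marked spots kept 12 were tested, and 0 passed in either version. Of all genes, 0.57% were higher and 0.188% lower in the first version, and 0.683% and 0.218% in the second. A count of 0 among so few genes is close to those shares. The median difference of these factors was 0.065 and 0.030. Ppara, the fatty acid receptor of liver, was at 0.29 ± 0.09 with marked spots left out (limma adjusted p = 0.165) and 0.15 ± 0.07 with them kept (limma adjusted p = 0.455). Mlxipl, the carbohydrate-responsive factor ChREBP, had the smallest p with marked spots kept, at −0.26 ± 0.09 (limma adjusted p = 0.25).

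The tissue label was checked on marker genes: 10 of 10 hepatocyte markers were well above background on at least 8 arrays. None of the lists for hepatocytes, Kupffer, stellate, endothelial and bile duct cells, neutrophils, lymphocytes and red cells had a member that passed the test between the diets. With marked spots kept, 0.683% of all genes were higher and 0.218% lower, and a count of 0 in lists this short is close to those shares. Between arrays, r over the genes tested ran from 0.974 to 0.994, so no array repeated another, and 17258 to 22445 probes per array were well above background.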

How the data were processed

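Each sample was 1 liver on 1 array, grouped by its title. The authors obtained the intensity of each spot with Agilent Feature Extraction 9.5.3.1, per the file headers; its processed signal has the local background removed and no scaling between arrays. The authors' deposited table of log2 values for 18060 probes served as an alternative, with a scaling not given in the sources used here. Each array's 75th percentile over non-control spots was subtracted from the log2 processed signal. Marked spots were left out or kept, and saturated spots kept. A probe needed a signal well above background on 8 or more arrays and at least 6 values per diet, and each gene was represented by its brightest such probe. The comparison of the diets used lmFit and eBayes of limma 3.58.1 (R 4.3.3) without covariates, two-sided, at an adjusted p under 0.05, a procedure tested on simulated data. Symbols were updated through a RefSeq table (GRCm38.p6); probe positions are the file headers' mm9. The arrays of slide 1 carried no barcode in their headers and were assumed to share a slide. Array number and signal over background limit the precision.

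The members and gene lists were chosen with earlier results of these data known. Named genes are the members, the smallest-p genes of the droplet and transcription factor lists, the adipocyte markers, and the 5 genes most like each of Cidec and G0s2. Ucp1 and Pnpla3 were added after their values were seen. Alternatives varied background correction, scaling, filter, probe choice, blocks and arrays.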

Additional observations from a re-analysis of the deposited data

Results flagged for a closer look

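Within 20 groups (10 genes in 2 diets), 2 mice stood apart from the rest of their group by Dixon's gap, where about 1 group in 20 does so by chance. Cidea in palm replicate 10 was at 0.753, and its distance to the next mouse was 0.66 of the whole range of that diet. This is one of the livers with the high Adipoq, Retn and Plin1 signals described above. G0s2 in linseed replicate 2 was at 4.74, with a distance of 0.59 of the range. Without that mouse G0s2 was 0.82 higher on linseed oil (limma adjusted p = 0.00591 with marked spots left out).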

How the results depend on the processing

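Across 38 alternative settings, 2 of them (leaving out linseed replicate 3 with palm replicate 10, and those with linseed replicate 6) chosen after seeing the data, G0s2 passed in 38 and Cidec in 35, at 1.60 to 2.36. The count of members called was 2, and 1 with slide 1 left out, with slide 3 left out and with the replicate number as a block, in both versions. In that block Cidec was at 2.18 (limma adjusted p = 0.132 with marked spots left out and 0.119 with them kept) and G0s2 at 0.83 (limma adjusted p = 0.043 and 0.0334). The numbers were not taken as a pairing: the correlation of deviations of same-numbered arrays ran from −0.22 to 0.47 and was over 0.1 in 5 of 8 pairs, all 5 on a shared slide. Leaving out single arrays kept the count at 2. No other member passed in any setting, and the sign of the Abhd5 difference turned in 2 settings, the mean of its probes and every probe on its own.

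The count over all genes, which sets the background, moved more. It was 121 with marked spots left out and 149 with them kept, and in that order 42 and 46 with the percentile over unmarked spots, 44 and 51 without a filter on dim probes, 68 and 83 with normexp, 18 and 26 with the replicate block, and 200 and 253 with slide as a random block. Leaving out slides 1 to 5 gave 30, 20, 39, 45 and 55 with marked spots left out and 31, 31, 54, 56 and 87 with them kept. Without linseed replicate 3 and palm replicate 10 it was 48 and 66, and without linseed replicate 6 as well 41 and 54. Leaving out single arrays gave 51 to 142 and 74 to 169. Of the called genes 75.2% were higher on linseed oil with marked spots left out, and 85.3% with normexp. Fewer arrays were fitted where arrays were left out; otherwise the cause was not tested.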
